A study of Mus musculus with 2 samples.

Results

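The peaks described here were called with a KLF4 antibody in the WT library alone and lie in protein-coding genes that hold 3 or more such peaks. A WT peak was taken when it lay on chromosomes 1 to 19 or X, overlapped no KO peak by 1 bp, and had its midpoint in no pseudogene span and in a coding span of the RefSeq table. Of the 2251 WT peaks, 428 met the rule, and they lay in 109 host genes. The KO list held 1153 peaks. The absence of a KO partner and the number of peaks per gene chose these peaks, so neither is a finding. In other words, the members were chosen by the called peaks of both libraries, and their scores enter through the caller's threshold.

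Both libraries came from atherosclerotic lesions of C57BL/6 mice fed a Western diet, with 1 library labelled WT and 1 labelled KO. The same antibody, GKLF (Santa Cruz Biotechnology), was used for both. The labels describe a mix of smooth muscle, epithelial, macrophage and other cells, and they give neither the deleted gene, nor the cells it was deleted from, nor the age of the animals, nor whether animals were pooled. With 1 library per genotype there is no replicate error, and no value below carries a test between genotypes.

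KLF4 is a zinc finger transcription factor of the Krüppel-like family, which binds CACCC and GC-rich elements in promoters and enhancers. In smooth muscle cells it is known as a regulator of the change from a contractile to a matrix-producing and migratory state. Chromatin immunoprecipitation with sequencing recovers DNA bound to a protein, and a caller such as MACS lists stretches where reads pile up. The score of each peak is the authors' value, taken here as −log10 of the caller's p-value multiplied by 10, with a lowest score of 50 in the WT list. It ranks peaks within a list and is not a level of binding. The depth of both libraries is unknown.

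Sequence could be read only where a peak reached a listed promoter window, so the 4 host promoters touched by a peak of their own gene are shown. Each runs 5′ to 3′ and holds the 250 bases before the listed start and the first 30 from it, from RefSeq on GRCm38.p6. Capitals mark CACCC or GGGNGNGGC on either strand, 2 forms of the KLF element.
Ywhae, chr11:75732637-75732916, plus strand: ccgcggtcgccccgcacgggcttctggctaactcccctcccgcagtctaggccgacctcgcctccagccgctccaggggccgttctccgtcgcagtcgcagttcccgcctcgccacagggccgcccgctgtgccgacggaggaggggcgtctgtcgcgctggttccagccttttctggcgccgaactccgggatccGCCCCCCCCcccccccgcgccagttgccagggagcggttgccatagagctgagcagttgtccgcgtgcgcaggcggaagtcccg
Serbp1, chr6:67266729-67267008, plus strand: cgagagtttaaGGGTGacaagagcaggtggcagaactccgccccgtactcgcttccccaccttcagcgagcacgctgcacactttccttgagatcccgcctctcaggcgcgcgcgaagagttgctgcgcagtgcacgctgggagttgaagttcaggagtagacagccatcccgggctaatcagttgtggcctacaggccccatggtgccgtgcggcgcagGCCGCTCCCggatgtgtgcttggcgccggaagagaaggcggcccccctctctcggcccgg
Tpm1, chr9:67049184-67049463, minus strand: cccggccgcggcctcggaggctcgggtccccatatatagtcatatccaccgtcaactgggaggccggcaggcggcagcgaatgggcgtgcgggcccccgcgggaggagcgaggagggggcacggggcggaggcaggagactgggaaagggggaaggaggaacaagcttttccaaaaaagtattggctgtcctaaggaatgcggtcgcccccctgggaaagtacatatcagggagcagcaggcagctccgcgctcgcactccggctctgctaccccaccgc
Szrd1, chr4:141139767-141140046, minus strand: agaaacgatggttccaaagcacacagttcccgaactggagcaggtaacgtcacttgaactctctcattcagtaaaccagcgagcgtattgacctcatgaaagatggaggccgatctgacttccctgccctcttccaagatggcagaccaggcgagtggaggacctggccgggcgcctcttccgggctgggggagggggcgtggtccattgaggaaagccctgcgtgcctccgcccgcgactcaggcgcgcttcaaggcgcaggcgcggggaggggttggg

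In all 4 the peak began after the start and ran into the gene. The first base of the peak lay 2 bases after the start in Ywhae, 8 in Serbp1, 22 in Tpm1 and 26 in Szrd1. Ywhae, which encodes the adaptor protein 14-3-3 epsilon, had 1 match to GGGNGNGGC, and its peak scored 127.0. Serbp1, an mRNA-binding protein gene, had 1 match to each element before a peak of score 270.4. The printed stretches of Tpm1 (peak score 345) and Szrd1 (119.3) held neither element. Across all 117 listed promoters of 85 host genes, 83.8% held at least 1 of the elements, compared with 76.6% of 657 promoters of genes with 1 or 2 WT-only peaks and 69.2% of 21045 promoters of coding genes. CACCC alone was in 66.7% of the host promoters and in the same share, 66.7%, of promoters of genes with 1 or 2, against 59.8% of all coding promoters. GGGNGNGGC alone was in 50.4%, 40.8% and 32.3% in that order, so the gap between hosts and genes with 1 or 2 lay in this element. The median GC content was 65.3%, 61.7% and 56.7% in the same order, and its part in the motif shares was not tested. A match is a description of letters in a 300-base window. Only 4 host promoters were touched by a peak of their own gene, as shown above. The motif shares therefore do not describe the sequence under the peaks.

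Few coding genes met the rule. On these chromosomes 1707 of 1985 WT peaks (86%) had no KO partner, and 0.504% of 21631 coding genes held 3 or more of the eligible ones, while 3.18% held at least 1. In the KO list 71.2% of peaks on these chromosomes had no WT partner. The 428 peaks are 25.1% of those WT-only peaks. Genes with exactly 3 numbered 60, and 49 genes held 4 or more. Just outside the threshold, 108 genes held 2. The median of the highest score in each gene was 162.1 for genes with 3 peaks and 120.1 for genes with 2. A highest of 3 is taken from more peaks than a highest of 2, so this gap is not a finding. Median span was 23.6 kb and 19.9 kb in those groups. Under the mirrored rule for the KO list, 1 gene held 3 KO-only peaks, Nrg3, which encodes a neuregulin, and 0.00462% of coding genes therefore met it.

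Scores ran from 50.51 to 1720.2 with a median of 99.9, and 214 peaks scored 100 or more. Of the 100 highest scores in the WT list, 13 belonged to these peaks, fewer than their share of the whole list (19.01%). The lowest were in Ywhaz (50.51), Marcks (50.53) and Cnbp (50.6), next to the limit of the list. Peaks were narrow, with a median width of 155.5 bp and an interquartile range of 122 to 201 bp. Together they covered 81.5 kb. Side by side, WT-only peaks of genes with 1 or 2 had a median score of 76.5 and width of 153 bp. WT-only peaks on pseudogenes had 99.7 and 155 bp. Shared WT peaks in coding genes scored higher than these WT-only classes, with a median of 255.8 and 88.0% at 100 or more. KO-only peaks in coding genes had a median score of 55.3 and a highest of 116.7, with a lowest of 50.1. A score ranks peaks within a list, so the KO-only scores are not compared with the WT scores. These values are descriptive because the score also decided which peaks were called.

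**Figure D1:**
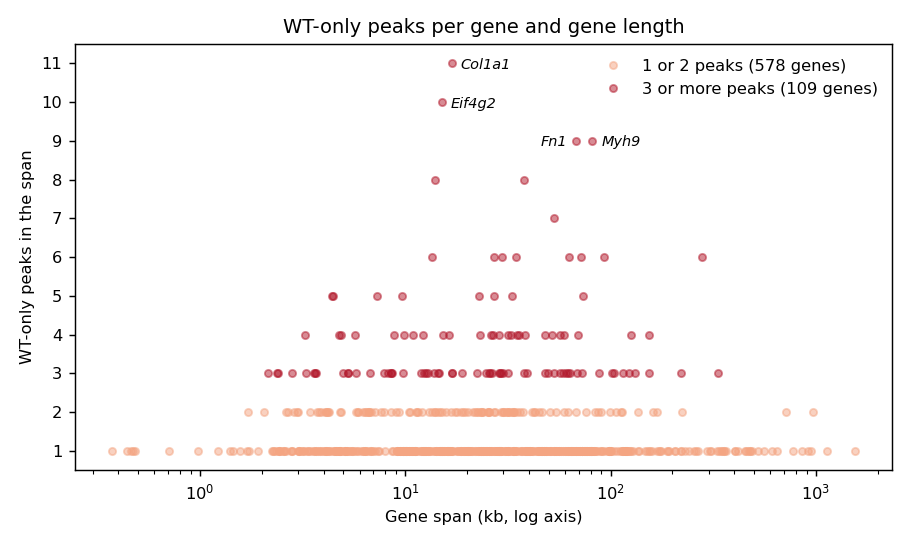
Number of eligible WT-only peaks in a gene (vertical axis) against the length of its span in kb (log axis), with 1 point per gene. The 109 genes with 3 or more peaks span 2.15 to 332 kb, and Col1a1 with 11 peaks spans 16.8 kb.

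Short and long genes were both among the hosts. Host spans ranged from 2.15 kb (Eif1) to 332 kb (Cadm1), with a median of 26.4 kb, against 24.4 kb for genes with 1 or 2 peaks and 17.3 kb for all coding genes. Peaks per 10 kb of span ranged from 0.0903 in Cadm1, a cell adhesion molecule gene, to 13.9 in Eif1, a start codon selection factor gene. In Eif1, whose span is 2.15 kb, 3 peaks covered 27.6% of the span. In the plot of peaks against length, the genes with 7 or more peaks lie between 13.9 and 81.6 kb.

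Matrix genes included Col1a1, the host with the most peaks. Of 36 extracellular matrix genes in a list, 10 were hosts (27.8%, against 0.504% of coding genes) with 49 peaks, and 9 others held 1 or 2. This list and those below were chosen with earlier results of these data known. Their shares are therefore descriptions and not independent evidence of enrichment. Col1a1, a type I collagen chain gene (gene 12842, chr11:94936224-94953042), held 11 peaks with a lowest score of 53.5, a median of 138.5 and a highest of 763.6. They formed clusters at 0.13 kb, around 6 kb, from 9.6 to 11.4 kb and from 13.2 to 15.3 kb from the lower end of the span. The KO list had no peak in Col1a1, and its nearest KO peak lay 1518 kb from a member. Its partner chain gene Col1a2 (chr6:4505618-4541543) held peaks of 368, 159.5, 95.8 and 53.5. Col3a1, a type III collagen gene, held 330.9, 64.9, 63.6 and 54.9, so 1 peak stood well above the other 3. Of 44 collagen genes, 4 were hosts, and Col11a1, Col4a1 and Col6a3 held 1 or 2. The KO list had a peak in 5 of the 44 (Col13a1, Col4a1, Col4a4, Col5a1 and Col6a6), against 1.65% of all coding genes. The median span of the collagen genes was 114.4 kb, against 17.3 kb for all coding genes, and its part in this count was not tested.

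Fn1, the fibronectin gene (chr1:71585473-71653280), held 9 peaks with a lowest score of 85.6, a median of 180.4 and a highest of 1720.2. Its 3 highest peaks lay within 12.2 to 28.4 kb of the lower end, and the other 6 were spread from 0.163 to 65.2 kb. Sparc, which encodes a collagen-binding matrix protein, held 975, 339 and 228.9. Thbs1, the thrombospondin 1 gene, held 311.5, 146.0, 100.3 and 66.8. Mmp14, a membrane-bound protease gene, held 254.6, 190.7, 185.4 and 107.7. Mmp2, a gelatinase gene, held 238.2, 163.6, 122.4 and 71.0. Vcan, the versican gene, held 189.3, 87.0 and 77.7. All 3 peaks in Sparc were above the highest in Vcan, and the KO list had no peak in any of these 6 genes. Over the 36 genes of the matrix list it had a peak in 2, Col4a1 and Col5a1, against 1.65% of all coding genes.

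**Figure D2:**
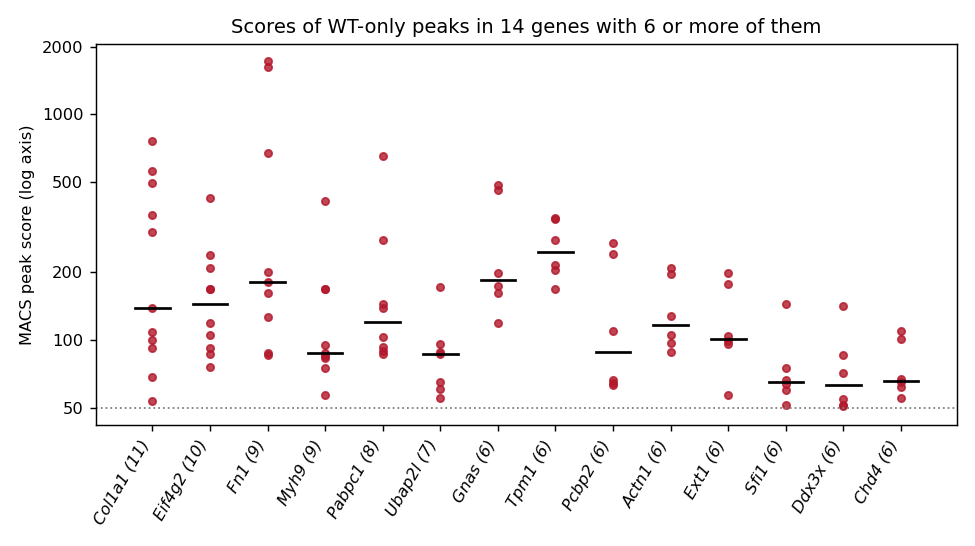
Score of each WT-only peak (log axis) in 14 genes with 6 or more of them, with the number of peaks in brackets, a bar at the gene's median and a dotted line at 50. Scores within a gene spread widely, as in Fn1 from 85.6 to 1720.2, while the 6 peaks of Tpm1 lie between 168.8 and 347.

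Of 31 integrin genes, 1 was a host (3.23%, against 0.504% of coding genes). This was Itgb1, which encodes the beta 1 chain shared by many matrix receptors and held 354.8, 159.6, 86.0 and 67.0. Hosts outside the lists are given here one by one and stand for no gene group. Ctnnb1, the beta-catenin gene, held 140.2, 110.1, 68.0, 56.3 and 50.7, all in the last 20% of its span. Ext1, a heparan sulfate synthesis gene, held 6 peaks from 56.7 to 197.9 with a median of 101.0. Igfbp5 held 368.9, 291.6 and 100.5, and Igfbp7 held 326.5, 110.5 and 59.9, both genes of insulin-like growth factor binding proteins. Gnas, the stimulatory G protein alpha subunit locus, held 6 peaks from 118.5 to 484.9, within 15.3 kb of a 62.4 kb span.

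The actin cytoskeleton list had the highest share of hosts among the lists. Of its 32 genes, 12 were hosts (37.5%, against 0.504% of coding genes), with 45 peaks, and 8 more held 1 or 2. As with the other lists, its choice with earlier results known makes this share a description. Tpm1, a tropomyosin gene (chr9:67022590-67049672), held 347.0, 344.9, 276.0, 215.0, 203.6 and 168.8, from 2.06% to 96.9% of the way along the gene. Its score range lay above the medians of all other genes with 6 or more peaks except Gnas and Fn1. Actn1, the actin crosslinker alpha-actinin 1, held 6 peaks from 88.3 to 207.4. Actb, the cytoplasmic beta-actin gene, held 424.4, 388.7, 95.5 and 69.0 within 1.96 kb. Tpm2 held 272.9, 131.0, 115.6 and 54.8, and Actn4 held 224.6, 133.9, 102.2 and 68.3.

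Cfl1, the actin-severing protein cofilin, held 651.4, 202.9 and 53.4. Pfn1, the actin monomer binder profilin, held 443.1, 292.9 and 63.2. Msn (moesin), Arpc2 (a subunit of the branching complex), Actg1, Vcl (vinculin) and Flna (filamin A) completed the count with 3 peaks each. Myh9, the non-muscle myosin IIA heavy chain (chr15:77760585-77842175), held 9 peaks with a lowest score of 57.1, a median of 87.6 and a highest of 413.0. Of these, 6 lay in the last 20% of the gene, while the highest lay at 35.8%. Among the 8 myosin genes listed, Myh9 was the sole host (12.5%, against 0.504% of coding genes). Myh10, Myl6, Myl9, Myl12a and Myl12b held 1 or 2. The KO list had no peak in any gene of the actin and myosin lists. Since 1.65% of all coding genes held a KO peak, this absence is not a finding about these genes.

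**Figure D3:**
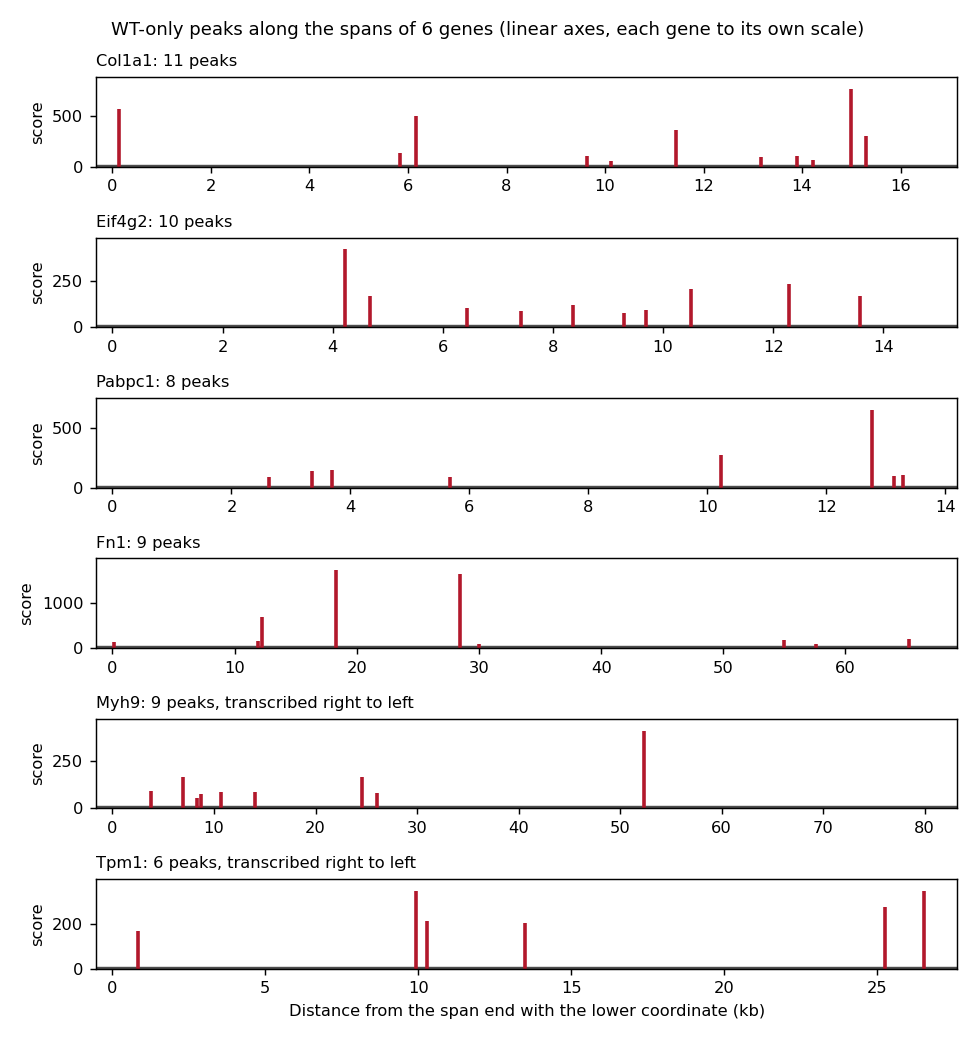
Midpoints of WT-only peaks along 6 gene spans, as distance in kb from the end with the lower coordinate, with bar height equal to the score (linear axes, a separate scale for each gene). Peaks are spread along the spans, with 11 in Col1a1, 10 in Eif4g2, 9 each in Fn1 and Myh9, 8 in Pabpc1 and 6 in Tpm1.

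Tubulin and intermediate filament genes had 4 hosts among 13 (30.8%, against 0.504% of coding genes), and 6 more held 1 or 2. Vim, the vimentin gene, held 620.3, 363.7 and 52.2. Tubb5 held 5 peaks of 213.6, 130.4, 89.9, 79.1 and 68.7 within 1.79 kb. Tuba1a held 225.8, 86.1 and 79.4, and Tuba1c held 194.3, 180.8 and 152.3. Tubulins, cytoplasmic actins and Eef1a1 have near-identical copies elsewhere in the genome, and how reads placed at several sites were treated is not given in the sources used here, so the counts of these genes are uncertain.

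Genes of contraction proper were represented by their cytoskeletal members. Of 16 smooth muscle contractile genes, Tpm1, Tpm2 and Vcl were hosts (18.75%, against 0.504% of coding genes). Acta2, Myl9 and Tagln held 1 or 2, and the remaining 10, Myh11 and Cnn1 among them, held none. Vcl held peaks of 139.1, 125.7 and 122.1, spread over 95.6% of a 104.3 kb span. The KO list had a peak in 2 of the 16, Synpo2 and Myocd, against 1.65% of all coding genes. Neither is a host, and this count was not tested.

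Of 37 mRNA-binding protein genes, 7 were hosts (18.9%, against 0.504% of coding genes) with 36 peaks, and 14 held 1 or 2. Pabpc1, the cytoplasmic poly(A) binding protein (chr15:36595658-36609581), held 8 peaks with a lowest score of 86.2, a median of 120.5 and a highest of 655.8. Pcbp2, a poly(C) binding protein gene, held 267.4, 239.8, 109.5, 66.2, 64.5 and 63.2. Hdlbp, the vigilin gene, held 141.6, 61.1, 58.8, 57.9 and 54.1. Ybx1, a nucleic acid binding protein gene, held 699.9, 581.1 and 266.6, so its lowest peak exceeded the highest of Hdlbp. Matr3 held 328.0, 84.5 and 53.3, and Serbp1 held 270.4, 83.4 and 51.0.

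Splicing factors and helicases followed. Of 21 hnRNP genes, which package and help splice nuclear RNA, 4 were hosts and 11 held 1 or 2. Hnrnpa2b1 held 552.8, 116.4, 89.1, 77.4 and 57.7. Hnrnpd held 192.2, 122.8, 95.3 and 87.4, Hnrnpk held 118.7, 111.8, 104.9 and 56.0, and Hnrnpm held 213.1, 82.2 and 61.6. Srsf1, the 1 host among 11 SR splicing factor genes (9.09%), held 327.6, 157.9, 108.3, 72.9 and 61.7. The DEAD-box helicase genes Ddx3x and Ddx5 were hosts among 36 (5.56%), and Ddx3x held 6 peaks from 51.0 to 141.5. No gene of the SF3 spliceosome list was a host, and 1 of 9, Sf3b1, held 1 or 2. With 0.504% of all coding genes as hosts, the lack of a host in a list of this size is not a finding.

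Among 55 translation initiation factor genes, 4 were hosts (7.27%, against 0.504% of coding genes). Eif4g2, a regulator of cap-independent translation (chr7:111067985-111083030), held 10 peaks with a lowest score of 75.8, a median of 143.5 and a highest of 426.4, a median of 939 bp apart. Eif5a held 654.1, 228.8 and 98.5, Eif1 held 221.4, 130.3 and 58.7, and Eif5 held 130.8, 98.0 and 70.7. Eef1a1, an elongation factor gene, held 358.4, 182.8 and 79.7. None of 83 ribosomal protein genes was a host, which is not a finding beside the 0.504% of all coding genes. Of the 83, 15 held 1 or 2, while 3.18% of all coding genes held at least 1. The median span of the ribosomal protein genes was 3.16 kb, and the part of gene length in these counts was not tested.

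Of 24 heat shock and chaperone genes, 4 were hosts (16.7%, against 0.504% of coding genes), all of them chaperone genes of the endoplasmic reticulum. Hspa5, the chaperone BiP, held 239.1, 106.1, 103.5, 89.5 and 53.6, of which 3 also lay in the overlapping host Rabepk. Serpinh1, a collagen chaperone, held 258.3, 159.2 and 76.5. Hsp90b1 held 220.1, 127.0 and 65.8, and Pdia3, a disulfide isomerase gene, held 185.8, 96.3 and 78.7. Another 8 held 1 or 2, among them the cytosolic Hsp90aa1 and Hsp90ab1 and also Calr and Canx of the endoplasmic reticulum. The hosts are therefore not set apart by compartment.

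In all, 51 of the 109 hosts belonged to at least 1 of the 17 functional lists, which together hold 471 distinct genes, and 58 belonged to none. Ubap2l, a ubiquitin-associated protein gene with 7 peaks from 55.1 to 170.9, and Chd4, a chromatin remodeller gene with 6 from 55.4 to 109.6, were the genes with 6 or more peaks outside every list besides Ext1, Gnas and Sfi1. Of 17 KLF family genes, none held any eligible peak, which is not a finding beside the 3.18% of all coding genes that held at least 1.

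**Figure D4:**
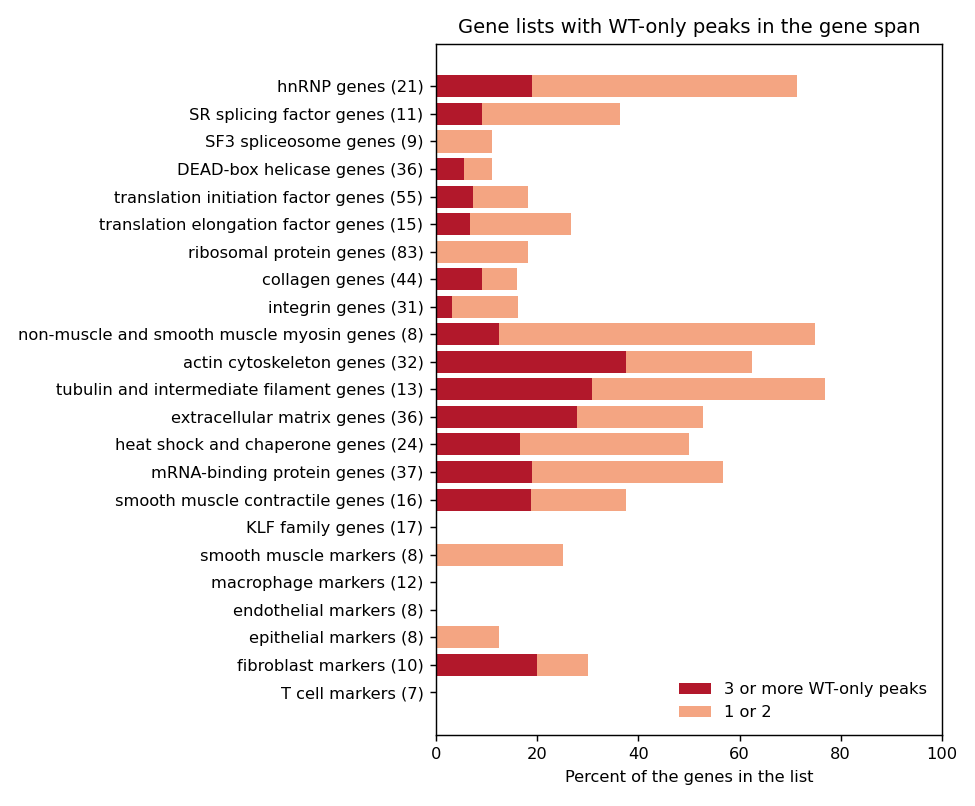
Percent of the genes in each list that hold 3 or more (dark) or 1 or 2 (light) eligible WT-only peaks, with the number of genes in brackets. The actin cytoskeleton list reaches 37.5% for 3 or more, while the KLF, macrophage, endothelial and T cell lists are empty. Of all coding genes, 3.18% held at least 1 eligible peak.

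Marker lists were taken for smooth muscle, epithelial and macrophage cells, which the labels name, and for endothelial cells, T cells and fibroblasts. Of all coding genes, 0.504% were hosts and 3.18% held at least 1 eligible peak, so an empty list of this size is not a finding. Of 8 smooth muscle markers, none was a host, and Acta2 and Tagln held 1 or 2. No macrophage marker (12 genes), endothelial marker (8) or T cell marker (7) held an eligible peak, and 1 of 8 epithelial markers, Krt14, held 1 or 2. Of 10 fibroblast markers, Col1a1 and Col1a2 were hosts. A peak does not measure expression, so these counts do not show which cells were in the tissue.

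Within a host, peaks were spread along much of the gene. The midpoints of neighbouring peaks were a median of 1858 bp apart over 325 pairs, and 121 pairs (37.2%) were under 1 kb apart. With 1 median spacing per gene, the median was 2649 bp in hosts and 2085.5 bp in genes with 2 peaks. Close spacing was therefore not particular to hosts. The stretch from the first to the last peak took a median of 52.1% of the span, and in 59 of 109 hosts at least 50% of it. In Ywhae, 5 peaks spanned 99.1% of the gene, and in Hmga2, a chromatin protein gene, 3 peaks spanned 99.5%. In Arf1, a vesicle coat regulator gene, 3 peaks lay within 0.971 kb of a 16.9 kb span.

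Peaks lay more often toward the 3′ end of the gene. Direction was taken from the promoter table, which holds 85 of the hosts and gave a direction for 310 peaks. Of these, 229 (73.9%, 95% Wilson interval 68.7 to 78.4%) lay in the 3′ 50%, 128 (41.3%, 35.9 to 46.8%) in the last 20% and 37 (11.9%) in the first 20%. The last 10% of the span alone held 74. Counting genes in place of peaks, 68 of 85 hosts had their median peak in the 3′ 50%, 32 had every peak there, and 4 had every peak in the 5′ 50% (Tpm2, Eif5, Maz and Gm21992). Intervals cover counting error only, and peaks of a gene are not independent.

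Within 1 kb of the 5′ end of the span lay 24 of the 310 peaks (7.74%, 5.26 to 11.3%), and within 1 kb of the 3′ end 43 (13.9%). WT-only peaks of genes with 1 or 2 had 65.7% (61.6 to 69.5%) in the 3′ 50% and 12.2% (9.69 to 15.2%) within 1 kb of the 5′ end, over 551 peaks. KO-only peaks in coding genes had 55% (48.4 to 61.4%) in the 3′ 50% over 220 peaks, and shared WT peaks had 52.5% (40.2 to 64.5%) over 61. These shares are set side by side with no test, since all WT classes come from 1 library. The highest-scoring peak of a gene lay in the last 20% in 28 of the 85 hosts and in the first 20% in 14. In Msn the peaks lay at 85.3%, 96.5% and 97.2% of the gene, and in Flna at 87.0%, 92.5% and 93.6%.

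**Figure D5:**
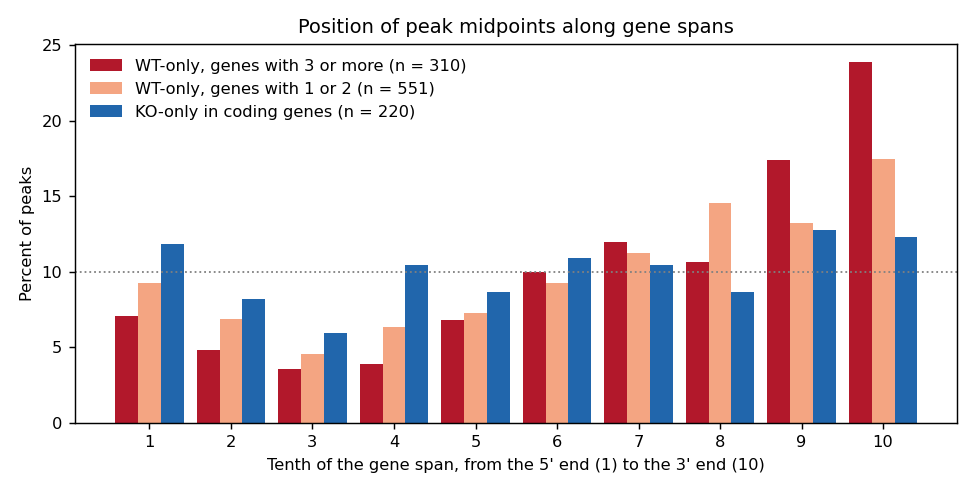
Percent of peaks with their midpoint in each 10% of the gene span, from the 5′ end to the 3′ end, for 3 classes of peaks, with a dotted line at the even share of 10%. Of the WT-only peaks in genes with 3 or more, 23.9% lie in the last 10% of the span and 7.1% in the first 10%.

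KO peaks also occurred in some host genes. Of the 109 hosts, 7 (6.42%) held a KO peak, 14 peaks in all. The share was 3.98% in genes with 1 or 2 WT-only peaks and 1.65% in all coding genes. Among hosts it was 8.33% with exactly 3 peaks and 4.08% with 4 or more, the latter near the share with 1 or 2. Median spans were 26.4 kb in hosts, 24.4 kb in genes with 1 or 2 and 17.3 kb in all coding genes. Neither these shares nor the part of gene length was tested. The rule had also set aside the WT peaks that overlap a KO peak. The nearest KO peak lay a median of 972 kb from a member, and 5 members had one within 1 kb. Sfi1, a centrosome protein gene, held 5 KO peaks scoring 54.5 to 112.8 within its span, and Tmem267, a transmembrane protein gene, held 4 scoring 53.5 to 74.2. Septin7, Col5a1, Ube2e3, Pdia3 and Cadm1 held 1 each, scoring 52.0 to 58.6, near the lowest KO score of 50.03. Hosts or not, 1 gene each of the integrin (Itga6), hnRNP (Hnrnpa1) and mRNA-binding (Ptbp3) lists held a KO peak. The same held for the translation initiation (Eif4g3), elongation (Eef2k) and chaperone (Pdia3) lists.

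Sfi1 and Tmem267 differed from the other hosts in peak shape. The 6 WT-only peaks of Sfi1 scored 143.6, 74.8, 66.0, 63.6, 59.8 and 51.3 and were 311 to 3003 bp wide, and 3 further WT peaks in the gene were shared with KO. The 3 peaks of Tmem267 scored 134.1, 133.7 and 50.9 and were 662 to 1441 bp wide, with 2 shared peaks beside them. No other host held a shared WT peak. In Sfi1 the shortest gap between a WT-only and a KO peak was 0.076 kb. Of the 12 members wider than 500 bp, 8 lay in these genes. Without them, 419 peaks in 107 hosts remained, with a median score of 100.3, a median width of 155 bp and 73.6% in the 3′ 50%. In Pdia3 a KO peak of 58.6 lay 0.508 kb from a WT-only peak.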

How the data were processed

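KLF4 ChIP-seq peaks were available for 1 WT and 1 KO library. The submitters' processing notes list SAMtools 0.1.18, Bowtie 1.0 and build mm10, and the peak names in the deposited lists show MACS. The sources used here give neither its version nor its control or settings. The deposited score of each peak is the authors' value, taken as −log10 p multiplied by 10. The lists hold no read counts, so depth is unknown and no depth-based limit can be given.

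Peaks were compared by 1 bp overlap and assigned by midpoint to RefSeq gene spans of GRCm38.p6, which shares the coordinates of mm10. A peak in 2 host spans was described under the shorter, except in values per host and in spacings, which it entered under both. Of the hosts, 85 matched the promoter table by gene ID. Those without an entry included Actb, Cadm1, Ccn2, Cdh11, Cdh2, Col1a1, Eif4g2, Enc1, Etf1, Ext1, Fgfr1, Fn1, Maf, Map4k4, Marcks, Matr3, Mmp2, Mrc2, Pabpc1, Sfi1, Thbs1, Ube2e3 and Ywhaz. The members and gene lists were chosen with earlier results of these data known. Named genes are hosts with 6 or more peaks, hosts of the 15 highest and the 3 lowest peaks, hosts with a KO peak, and up to 4 hosts per list. Other hosts were named after their values were seen, or to complete a count. A host gene that met this rule is not reported here. No test was made. The member rule was tested on simulated data. The work was done in Python 3.11.15 with pandas 2.3.3 and numpy 2.4.6. Intervals came from scipy 1.17.1 (95% Wilson), and plots from matplotlib 3.10.9.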

Additional observations from a re-analysis of the deposited data

Results flagged for a closer look

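The rule leaves out the Y chromosome and unplaced sequences, where WT peaks without a KO partner were also called. The Y chromosome held 160 of them, with a median score of 68.8 and a highest of 133.1, and the KO list had 91 peaks there. Unplaced sequences held 28, with a median score of 56.3 and a highest of 302.7, beside 53 KO peaks. Both are named because the comparisons above do not use them.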

How the results depend on the processing

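Of 95 values recomputed under other settings, 66 stayed within 1.5 times the value (counts) or within its 95% interval (shares and medians), and 29 moved. A change of direction was not scored separately. With 4 or more peaks per gene, 254 peaks in 49 genes remained, 14.96% lay within 1 kb of an end, the hosts held 6 KO peaks, and 27 belonged to the lists. With 2 or more, there were 217 genes, 77 of them in the lists. Keeping WT peaks at or above the median score gave 171 peaks in 45 genes, a median score of 161.1, a width of 164 bp, a spacing of 3056.5 bp, 0 KO peaks and 29 list genes. A WT list as long as the KO list gave 173 peaks in 45 genes, 160.6, 164 bp, 3056.5 bp, 0 and 29. Fewer peaks enter these settings by construction. Joining peaks under 200 bp apart moved the spacing to 2919 bp. KO peaks in hosts numbered 9 when a KO peak within 1 kb counted as overlap, and 5 without Sfi1 and Tmem267. The share near a span end was 8.88% within 500 bp and 36.0% within 2 kb. The 3′ 50% held 71.7 to 76.3% of peaks under every setting that counts peaks, and 80.7% of genes when each gene gave 1 value, which like the setting without Sfi1 and Tmem267 was chosen after the data were seen. CACCC alone was in 66.7% and GGGNGNGGC alone in 50.4% of host promoters. No paired analysis was possible because each genotype has 1 library. Unknown depth limits every statement on absent KO peaks, since a site can miss the caller's threshold in a shallower library.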

Other observations

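Some peaks lay over noncoding RNA genes inside the hosts. This held for 10 members in 6 hosts, 8 over a long noncoding RNA gene, 1 over a microRNA gene and 1 over a snoRNA gene. The microRNA gene was Mir3064, under a peak of score 190.7 in Ddx5. All 4 peaks of Sox4, a transcription factor gene of progenitor cells (127.9, 86.8, 73.8 and 53.1), lay in the span of Gm46405 as well. In Col5a1, the highest peak (194.1) covered 230 bases of the promoter window of the long noncoding RNA gene Gm13372.

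Several hosts have disabled copies with peaks of their own. A pseudogene named after the host was listed for 10 hosts, and 6 of them had a WT-only peak on at least 1 such copy, 8 copies of 19 in all. These were Eef1a1-ps1, Hmga2-ps1, Matr3-ps2, Ybx1-ps2, and 2 copies each of Marcksl1 and Pisd. In all, 391 WT-only peaks lay on pseudogenes. The share of all pseudogenes with such a peak was not computed, so the count of copies is not a finding about hosts. Copies with other names are not counted. The peak on Ybx1-ps2 scored 661.7, between the highest (699.9) and the second peak (581.1) of Ybx1 itself. How reads that fit both places were assigned is not given in the sources used here.

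A few other hosts belong to no list, were picked after their values were seen, and stand for no gene group. Atf4, a stress response factor gene, held 147.7, 68.7 and 59.9, Maf held 126.7, 66.1 and 59.7, and Maz held 113.0, 96.9 and 52.7. Rhoa and Cdc42, regulators of actin assembly, held 184.8, 107.3, 99.3 and 57.1, and 313.5, 272.5 and 133.9.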
